A study of Mus musculus with 26 samples.

Results

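Among 26 single mouse retinal amacrine cells, 9 cells fell on 1 of 2 sides of a contrast between gene combinations. AII-like cells, 4 in number, were those in which Dab1, Nfia, Gjd2 and Neurod2 were all detected. Ly6h cells, 5 in number, were those in which Ly6h, Gabrb2, Cdh22 and Tmem215 were all detected. No cell was on both sides, and 17 cells were on neither. Detection meant a signal of 1000 or more on arrays whose trimmed mean signal was 500, and a gene with several probe sets was read from the one with the highest mean over the 26 cells.

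Amacrine cells shape signals between bipolar and ganglion cells, and most inhibit their targets with either GABA or glycine. The AII amacrine cell is the narrow-field glycinergic cell of the rod pathway: it receives input from rod bipolar cells, passes it to cone bipolar cells through gap junctions and glycinergic synapses, and is recognised by the adaptor protein Dab1 and by gap junctions built from the connexin that Gjd2 encodes. Other glycinergic amacrine cells do not carry this set of markers.

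Each cell had been put on 1 Affymetrix Mouse 430 2.0 array after 35 cycles of PCR. Retinas had received a green fluorescent reporter driven by a promoter of Ndrg4 (pNdrg4) or of Synapsin (pSynapsin) by electroporation, and single fluorescent cells were picked from the dissociated tissue. The AII-like cells were pSynapsin cell E2, labelled P5 and cultured for 5 days, pNdrg4 cell A1 and pSynapsin cell B4, both labelled P8 and cultured for 8 days, and pNdrg4 cell B1, labelled P5 with no culture stated. The Ly6h cells were pSynapsin cells E1, E3 and E4, labelled P5 and cultured for 5 days, and pNdrg4 cell A2 and pSynapsin cell B3, labelled P8 and cultured for 8 days. Thus every cell of the P5 pSynapsin, P8 pNdrg4 and P8 pSynapsin label groups was on 1 of the sides, and each of these 3 label groups held both. The other 17 cells were 14 pNdrg4 cells labelled P5 (5 cultured, 9 with no culture stated), 2 pNdrg4 cells labelled P4 and 1 pSynapsin cell labelled E19. The P4 and E19 cells had been cultured for 4 days. The labels name no strain, animal or retina, so the cells of a side cannot be counted as independent replicates. The sides were also chosen by measured values. No p-value was therefore computed, and differences are given with the value of every cell.

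Below, signals are listed for B1, E2, A1 and B4 in that order on the AII-like side, and for E1, E3, E4, A2 and B3 in that order on the Ly6h side. A difference is the AII-like median minus the Ly6h median of log2 signals raised to a floor of 200 (7.64 on the log2 scale), so it understates the gap wherever 1 side lies at the floor. Signals of different probe sets were not compared with each other.

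The genes that chose the cells are described first, and their separation is no finding. Nfia, a transcription factor of the nuclear factor I family, had signals of 11546, 10303, 9585 and 21331 in AII-like cells and of 61, 20, 12, 267 and 41 in Ly6h cells. Gjd2, the neuronal connexin, had 18709, 20698, 34051 and 22700 against 25, 47, 31, 31 and 937. Neurod2, a basic helix-loop-helix (bHLH) transcription factor of maturing neurons, had 4324, 8087, 5343 and 3359 against 13, 10, 35, 1037 and 5. The Ly6h side had no detected Nfia or Gjd2, whereas Neurod2 reached the detection level in cell A2. Dab1, which relays reelin signals, did not set the sides apart: it had 14361, 14031, 10439 and 9119 in AII-like cells and 7135, 4464, 9973, 3683 and 5016 in Ly6h cells, and the sides overlapped. Dab1 was detected in all 9 cells and in 4 of the other 17.

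Ly6h, a membrane-anchored protein that modulates nicotinic acetylcholine receptors, had 24240, 24573, 29447, 19107 and 21626 in Ly6h cells and 30, 11, 67 and 11 in AII-like cells. Gabrb2, a beta subunit of the GABA-A receptor, had 23817, 21456, 23038, 11478 and 17754 against 8, 13, 1 and 36. Cdh22, a cadherin, had 27697, 37492, 27795, 15917 and 32413 against 90, 146, 149 and 67. None of the 4 Ly6h genes was above the floor in any AII-like cell. Tmem215, which encodes a transmembrane protein, was the least even among Ly6h cells, with 16734, 17830, 6153, 3468 and 16202 against 3, 2, 2 and 2.

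The thresholds left wide margins for most of these genes. Just inside and just outside the detection level over the 26 cells, the signals were 1233 and 894 for Dab1, 2346 and 267 for Nfia, 6846 and 937 for Gjd2, and 1037 and 367 for Neurod2. They were 1333 and 441 for Ly6h, 4066 and 128 for Gabrb2, 2518 and 352 for Cdh22, and 3115 and 115 for Tmem215. No other cell had more than 2 of the 4 genes of either side. The same 9 cells were found with detection at 500 or 2000, and with the highest probe set of a gene in each cell.

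**Figure D1:**
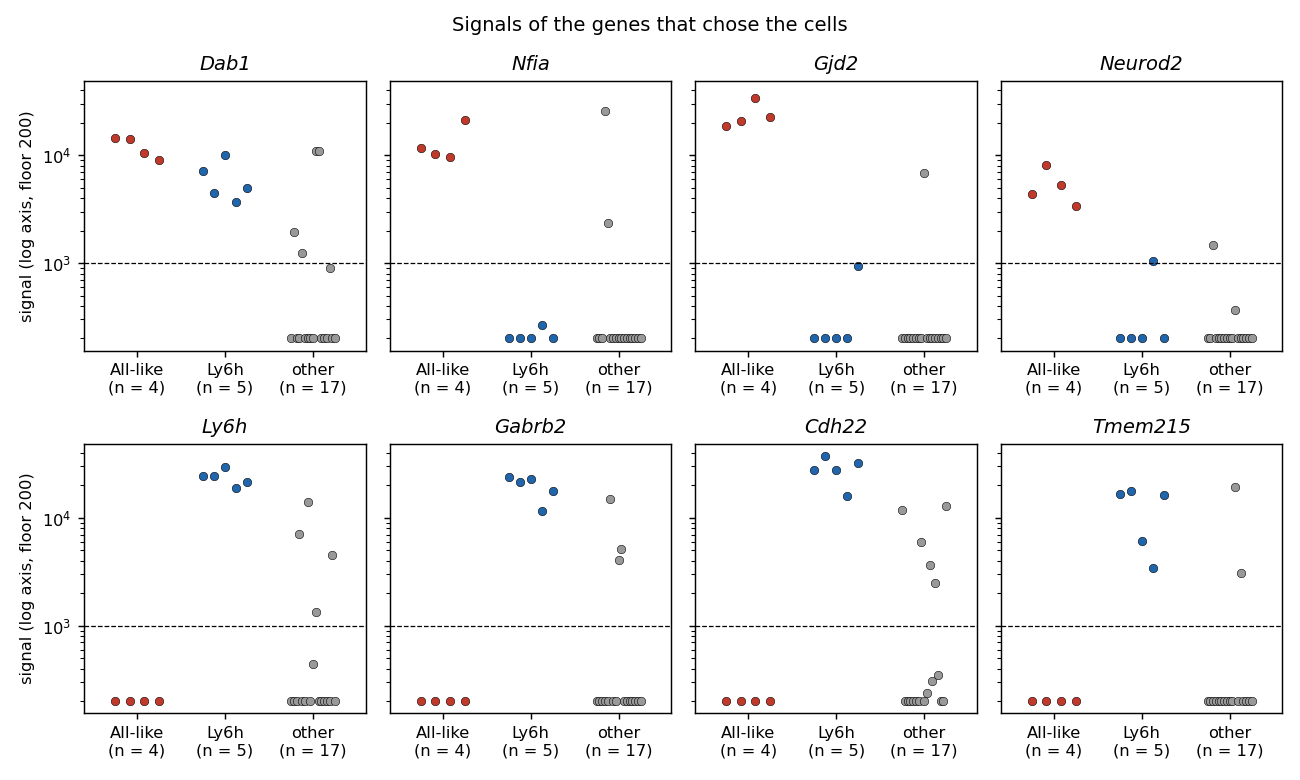
Signals of the 8 genes that chose the cells (log axis, values under 200 drawn at 200) in the 4 AII-like, 5 Ly6h and 17 other cells, 1 point per cell. The dashed line is the detection level of 1000. Dab1 lies above it in all 9 cells of both sides, and the other 7 genes separate the sides except for 1 Ly6h cell with Neurod2 at 1037.

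Other probe sets of these genes gave a partial view. For Gabrb2, 3 further probe sets were detected in 4, 4 and 5 of the 5 Ly6h cells and in 0 AII-like cells. For Nfia, 1 further probe set was detected in 2 of 4 AII-like cells and 0 Ly6h cells. Further probe sets of Gjd2, Neurod2 and Tmem215 were detected in no AII-like or Ly6h cell. With the median over all probe sets of a gene in each cell, the difference of Nfia was 0.48 in place of 5.77, that of Neurod2 0.69 in place of 4.59, and that of Tmem215 0 in place of -6.34, while that of Gabrb2 was -3.35 in place of -6.75 and that of Dab1 2.85 in place of 1.27.

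Because Neurod2 on the AII-like side and Nhlh2 on the Ly6h side encode bHLH factors, which bind E-box motifs, the 250 bases before the start site are shown for 2 genes of each side, with each E-box in capitals. The genes were those with the widest gap between sides, among the genes that chose the cells and among the others, whose window lies outside their own RefSeq span. Sequences are RefSeq's on GRCm38.p6, written 5′ to 3′ along the gene: Neurod2 (chr11:98329646-98329895, minus strand), Gas1 (chr13:60177536-60177785, minus strand), Tmem215 (chr4:40471930-40472179, plus strand) and Pcdh8 (chr14:79771313-79771562, minus strand).
Neurod2: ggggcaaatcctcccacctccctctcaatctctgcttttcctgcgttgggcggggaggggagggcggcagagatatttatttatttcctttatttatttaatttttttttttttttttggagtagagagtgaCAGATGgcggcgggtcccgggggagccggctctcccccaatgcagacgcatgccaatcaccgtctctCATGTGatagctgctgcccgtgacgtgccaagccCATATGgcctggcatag
Gas1: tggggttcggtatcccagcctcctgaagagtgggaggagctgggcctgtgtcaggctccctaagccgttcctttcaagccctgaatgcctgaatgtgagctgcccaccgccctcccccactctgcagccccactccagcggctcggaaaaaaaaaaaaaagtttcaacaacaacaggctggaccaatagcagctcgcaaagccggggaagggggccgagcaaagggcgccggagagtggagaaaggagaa
Tmem215: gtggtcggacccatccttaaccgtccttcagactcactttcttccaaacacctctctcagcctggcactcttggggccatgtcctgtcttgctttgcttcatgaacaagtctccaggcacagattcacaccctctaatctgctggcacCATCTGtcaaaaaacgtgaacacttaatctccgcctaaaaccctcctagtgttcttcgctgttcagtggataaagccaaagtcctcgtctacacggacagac
Pcdh8: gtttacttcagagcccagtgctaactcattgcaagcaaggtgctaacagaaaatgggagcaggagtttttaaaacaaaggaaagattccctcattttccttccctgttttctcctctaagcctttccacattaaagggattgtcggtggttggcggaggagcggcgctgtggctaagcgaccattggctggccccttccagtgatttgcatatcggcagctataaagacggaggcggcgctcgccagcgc
The Neurod2 window held 3 E-boxes (CANNTG, which reads the same on both strands), the Tmem215 window 1, and the Gas1 and Pcdh8 windows 0. Of 32851 windows of this length before listed start sites, 66.2% held an E-box, against 11 of 14 windows (78.6%) of the AII-like genes named here and 10 of 18 windows (55.6%) of the Ly6h genes, where 12 of 19 genes of each side were matched. A match is a description of letters and not a binding site.

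Both sides shared a glycinergic and amacrine profile. Slc6a9, which encodes a glycine transporter, reached the detection level in all 9 cells, with signals from 10323 to 16123 in AII-like and from 2022 to 18517 in Ly6h cells, and in 5 of the other 17. The vesicular transporter gene for GABA and glycine, Slc32a1, and the amacrine lineage factor Pax6 were also detected in all 9 cells, and in 13 and 17 of the others. Gad1, an enzyme of GABA synthesis, was detected in 0 of the 9 cells and in 11 of the other 17, while Gad2 was detected in 1 AII-like and 2 Ly6h cells. Lamp5, a lysosome-associated membrane protein of neurons (all 9 cells, 5 of 17), Cplx3, a complexin of retinal synapses (all 9, 9 of 17), and Drd2, a dopamine receptor (all 9, 2 of 17), were shared as well. Across all genes, 466 were detected in all 9 cells. These shared genes were picked out after their values were seen. The other 17 cells had fewer genes detected at the median (2583) than AII-like (3422) or Ly6h cells (3543), and they differ in labels too.

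The AII-like label was checked against the markers of the AII list that the choice of cells did not use. Car2, a carbonic anhydrase, was detected in 4 of 4 AII-like and 1 of 5 Ly6h cells. The calcium-binding protein gene Calb2 had 17, 10226, 3587 and 12680 in AII-like cells against 1146, 26, 133, 1902 and 50. It was thus detected in 3 of 4 cells against 2 of 5, and the sides overlapped. Dner, a neuronal Notch ligand, was detected in 4 of 4 and 3 of 5 cells. Prox1, a homeobox factor of AII cells in the mature retina, was detected only in A1 among the 9 cells, at 5492. Nfib was detected in 2 of 4 and 0 of 5 cells, Nfix in none of the 9, and Pvalb, the gene of parvalbumin, in fewer than 2 of the 26. Car2 was also detected in 9 of the other 17 cells, up to 21368. The name therefore rests mainly on the genes that chose the cells.

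Beyond those genes, the sides differed in both directions. A gene was called higher on 1 side when the cells of the sides did not overlap and their medians differed by at least 2 log2 units. By this rule 51 of 8570 genes (0.595%) were higher in AII-like cells and 95 (1.11%) in Ly6h cells, of which 48 and 91 were not used to choose the cells. The 8570 genes were those detected in at least 2 of the 26 cells. Their median difference was 0, with 2638 above 0, 3396 below and 2536 at 0. Without B1, which had the fewest detected genes of the 9 cells, the counts were 155 and 126, and 47 of the 51 genes were among the 155. With arrays scaled to their 75th percentile the counts were 78 and 79, so the excess on the Ly6h side depends on the scaling. AII-like cells had 2249, 3462, 3382 and 3467 genes detected and Ly6h cells 3482, 3543, 3291, 4180 and 3998.

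Because age, reporter and culture were not balanced between the sides as wholes, differences were also taken inside the 3 label groups that hold both: E2 against the median of E1, E3 and E4, A1 against A2, and B4 against B3. By at least 1 log2 unit in each of the 3, 222 of 8570 genes (2.59%) were higher in AII-like cells and 299 (3.49%) in Ly6h cells. Of the genes called over all 9 cells, 40 of 51 (78.4%) and 80 of 95 (84.2%) were among these. A call over all 9 cells already fixes the sign in each label group, so these shares say only how often the size reached 1 unit. B1 has no Ly6h partner with its labels and entered none of these differences.

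In each direction the 15 genes with the widest gap between sides were named, among genes detected in every cell of the higher side. Detection of all 15 in every AII-like cell is thus fixed by the choice. Of these 15, 9 were detected in no Ly6h cell. Since the genes were chosen for a gap between these same cells, their direction inside each label group is fixed by the choice, and only the sizes are a description. Of all 8570 genes, 13 (0.152%) were detected in all 4 AII-like cells and 0 Ly6h cells; these include the chosen ones, and nothing is read from the share.

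Among signalling and channel genes, Gnaz, an alpha subunit of inhibitory G proteins, had 15397, 3487, 12930 and 5506 in AII-like cells and 4, 46, 8, 12 and 13 in Ly6h cells, a difference of 5.40. Every Ly6h cell was under the floor, and the lowest AII-like cell was E2. Cacna1h, a low-voltage-activated calcium channel, had 5045, 6516, 2427 and 4760 against 8, 5, 9, 12 and 269 (4.61). Its 2 sides were likewise far apart, with A1 the lowest AII-like cell. Shisa6, an auxiliary protein of AMPA-type glutamate receptors, had 18633, 2530, 3701 and 8345 against 3, 27, 2, 443 and 46 (4.80), and B1 was the highest cell.

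Drd2 was detected in all 9 cells, at 21060, 18372, 22353 and 16097 in AII-like cells against 1579, 6749, 4042, 5401 and 5691. The sides did not overlap, but the difference of 1.86 is below the 2 units set for a call. It passed the 2 units without E3, A2 or B3, with means in place of medians, and with scaling to the 75th percentile. Trpm7, a channel fused to a kinase, had 4064, 3057, 2070 and 2829 against 870, 265, 87, 717 and 39 (3.47). It was under the detection level in all Ly6h cells, although E1 and A2 came near it. Arhgef25, an activator of small GTPases, had 20081, 6532, 2282 and 8645 against 647, 46, 165, 785 and 132 (5.23).

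Among surface and secreted proteins, Gas1, a co-receptor for Hedgehog ligands, had 5447, 4803, 3109 and 4978 against 5, 53, 27, 188 and 4 (4.61). All Ly6h cells were under the floor. Adam11, a membrane protein of the disintegrin family, had 17917, 5571, 2537 and 3213 against 342, 85, 110, 26 and 168 (4.40). Ackr1, an atypical chemokine receptor, was detected in 3 Ly6h cells too, with 44199, 24020, 15366 and 26278 against 1243, 491, 7, 2298 and 1133 (4.47). Crtac1, a secreted matrix protein, differed by 3.48, and Vstm2a, a secreted immunoglobulin-domain protein, by 3.60, with no Ly6h cell at the detection level for either.

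Car2 had 12564, 11033, 22018 and 15014 in AII-like cells against 109, 148, 15, 2142 and 229 (6.10). A2 was the 1 Ly6h cell in which it was detected. The ubiquitin ligase gene Rnf152 had 15487, 16936, 26913 and 22694 against 1, 3, 2, 3385 and 2896 (6.62). The 3 P5 Ly6h cells were at the floor and both P8 Ly6h cells were detected, and inside the label groups the differences were 6.40 at P5 and 2.99 and 2.97 at P8. Rnf19a, another ubiquitin ligase gene, differed by 4.61 and was detected in 1 Ly6h cell, B3, at 1108.

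The transcription factor gene Tfap2b had 5239, 11792, 17409 and 11017 in AII-like cells against 5, 26, 13, 2231 and 40 (5.83). It was detected in 15 of the other 17 cells, and 4 of the 5 Ly6h cells lacked it. Its relative Tfap2a had 962, 5528, 2018 and 2763 against 45, 58, 21, 72 and 5 (3.56) and was detected in 13 of the other 17. AP-2 factors act in amacrine cell development.

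**Figure D2:**
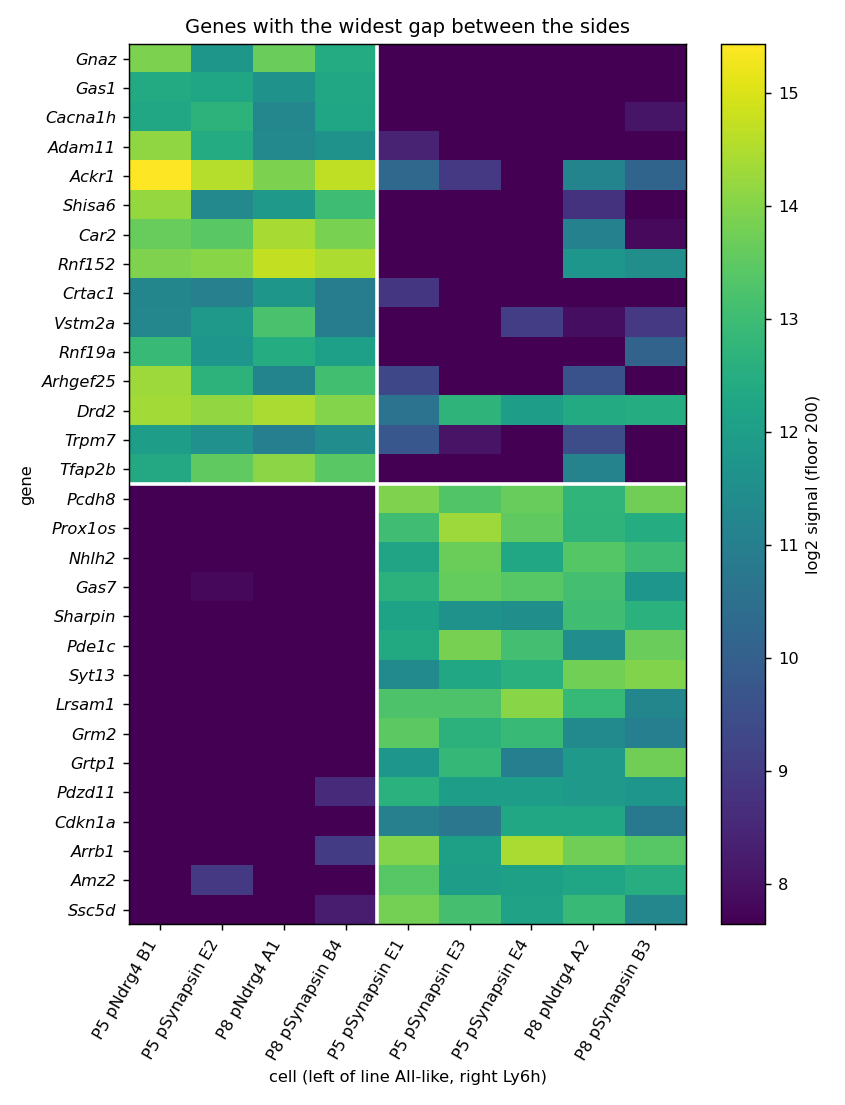
Log2 signals (floor 200, or 7.64) of the 15 genes of each direction with the widest gap between the sides, in 4 AII-like cells (left of the white line) and 5 Ly6h cells (right). They were chosen among genes detected in every cell of the higher side. The lower left block lies at or near the floor, whereas in the upper right block A2 and B3 hold more of the AII-like genes than E1, E3 and E4.

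On the Ly6h side the choice required detection in all 5 Ly6h cells, and all 15 named genes were detected in 0 of 4 AII-like cells. Of all 8570 genes, 39 (0.455%) had that pattern, the chosen ones included, and here too the choice fixes the direction in every label group. Pcdh8, an activity-regulated protocadherin, had the widest gap, with 15560, 10170, 12507, 6800 and 13835 in Ly6h cells and 19, 11, 2 and 2 in AII-like cells (-5.97). It was detected in 5 of the other 17 cells.

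Nhlh2, a bHLH factor of neurons, had 4672, 13042, 5048, 10700 and 8109 in Ly6h cells and 43, 48, 3 and 13 in AII-like cells (-5.34). It was found in 8 of the other 17 cells as well. Prox1os, a transcript antisense to Prox1, had 8360, 20050, 11946, 6722 and 5666 against 73, 45, 6 and 6 (-5.39). Prox1 itself was detected in none of the 5 Ly6h cells. The labelled material was PCR product, in which the strands of overlapping transcripts cannot be told apart.

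Among genes of receptors and their signalling, Grm2, a metabotropic glutamate receptor, had 11412, 6434, 7649, 2566 and 2077 in Ly6h cells against 15, 52, 65 and 54 (-5.01). The 3 P5 cells were all higher than both P8 cells. Arrb1, which arrests and redirects signals of G protein coupled receptors, had 16260, 4264, 22347, 13793 and 10887 against 117, 5, 34 and 517 (-6.11). Pde1c, a calcium-dependent phosphodiesterase, had 5352, 14764, 8829, 2812 and 12765 against 5, 4, 4 and 3 (-5.46), but with the median over its probe sets its difference was 0.

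The cytoskeletal adaptor gene Gas7 had 6418, 12285, 10797, 8857 and 3399 in Ly6h cells against 124, 225, 39 and 49 (-5.47) and was detected in 1 of the other 17 cells. Syt13, of the synaptotagmin family, had 2650, 5068, 6145, 14072 and 16029 against 18, 85, 96 and 57 (-4.94). In contrast to Grm2, both P8 cells were higher than the 3 P5 cells. Grtp1, a TBC-domain protein, had 3385, 7311, 2047, 3628 and 13666 against 3, 14, 37 and 3 (-4.18) and was detected in none of the other 17 cells, where its highest signal was 89. Among the 95 genes called on this side, 3 were detected in no other cell.

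The remaining named genes were Lrsam1, a ubiquitin ligase (-5.60), Sharpin, a subunit of the linear ubiquitin ligase complex (-4.52), Ssc5d, a scavenger receptor family protein (-5.26), Amz2, a metallopeptidase (-4.59), Pdzd11, a PDZ-domain protein (-4.37), and Cdkn1a, an inhibitor of cyclin-dependent kinases (-3.38). Cdkn1a had the smallest difference of medians of these, with 2079, 1689, 5089, 4970 and 1773 in Ly6h cells against 95, 108, 114 and 141. All of its AII-like values were under the floor. Of 34 other probe sets of named genes, 23 were detected in any of the 9 cells. By sign alone, 21 of the 23 went the same way and 2 did not (1 each of Pde1c and Amz2). Sizes among the 21 varied widely, from -0.08 for Syt13 to 4.44 for 1 probe set of Arhgef25.

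**Figure D3:**
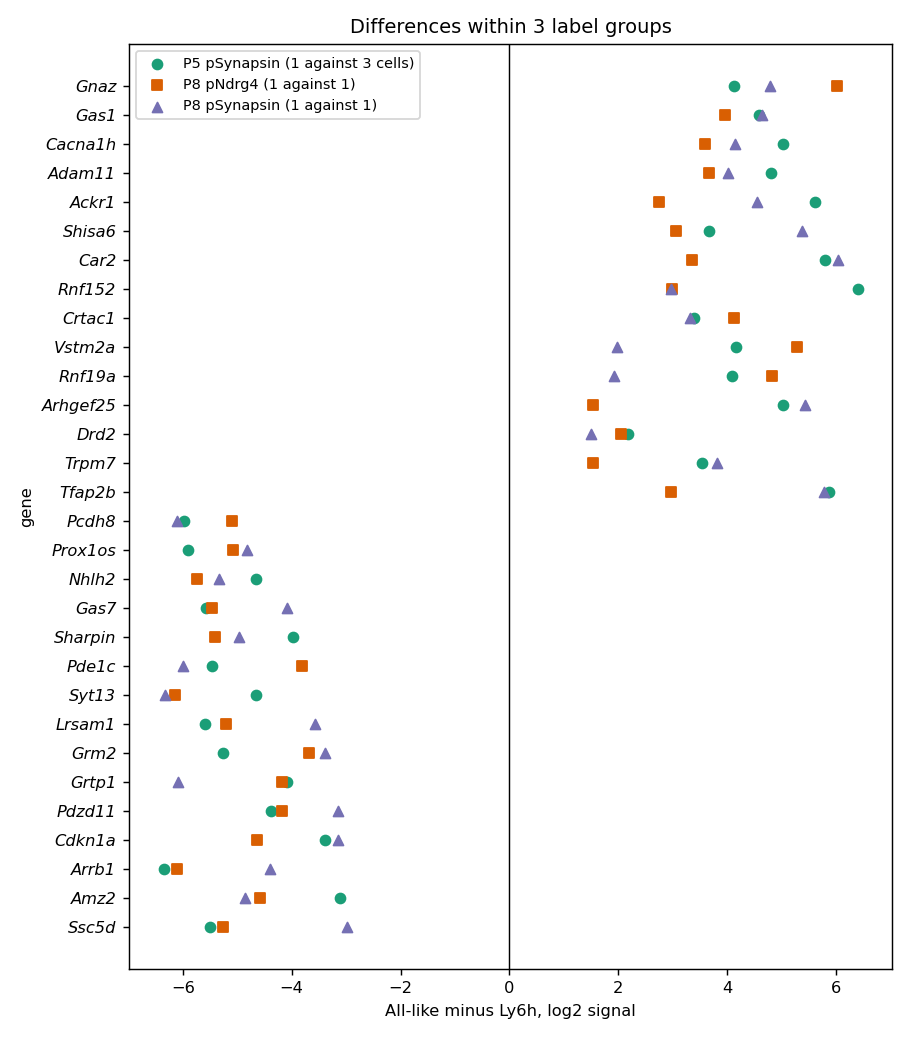
Difference of log2 signals, AII-like minus Ly6h, for the 30 named genes inside the P5 pSynapsin (1 AII-like against the median of 3 Ly6h cells), P8 pNdrg4 and P8 pSynapsin (1 against 1 cell each) label groups. The side of 0 is fixed by the choice of genes, and the plot shows the sizes. The nearest to 0 is Drd2 at 1.50 in the P8 pSynapsin pair.

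In the lists of GABA, glutamate and nicotinic genes, every call was on the Ly6h side, where 1.11% of all genes were called against 0.595% on the other. The calls include Gabrb2 and Ly6h, which chose the cells, and those of Grm8, Chrna4 and Neto2 were lost with scaling to the 75th percentile. Shisa6, which is on none of these lists, was called on the AII-like side. Of 6 genes of GABA synthesis and transport that entered, 1 was called, Abat, the enzyme that degrades GABA, with 5503, 3835, 1920, 4606 and 6826 in Ly6h cells against 25, 21, 10 and 261 (-4.53). Of 7 GABA-A receptor genes only Gabrb2 itself was called. Of 4 genes of GABA-B and metabotropic glutamate receptors, Grm2 and Grm8 (-2.01) were called; Grm8 was not called without E3, E4 or B3. The list of 8 nicotinic receptor and Ly6 family genes had Ly6h and Chrna4, a nicotinic receptor subunit, called. Chrna4 was detected in 4 of 5 Ly6h cells, 0 AII-like cells and 0 of the other 17, at 997 to 1914 in Ly6h cells (-2.09), and it was not called without B1 or E2. Its partner subunit gene Chrnb2 was detected in 4 of 5 Ly6h and 0 of 4 AII-like cells (-4.08), but E1 was at 11 and the sides overlapped.

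Glycine transport and receptor genes did not set the sides apart: 0 of 6 were called, with a median difference of -0.61 that turned to 0.44 without B1. Within it Glra3, a glycine receptor subunit, was detected in 1 AII-like and 4 Ly6h cells. Of 13 ionotropic glutamate receptor genes and partners, 1 was called, Neto2, an auxiliary subunit of kainate receptors, lower in AII-like cells (-2.54), which was not called without E1 or A2.

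Channel genes were called in both directions, where 0.595% of all genes were called on the AII-like side and 1.11% on the Ly6h side. Of 23 potassium channel genes, Kcnd3, a pore subunit of A-type channels, had 19550, 1495, 10813, 1568 and 11371 in Ly6h cells against 69, 116, 4 and 38 (-5.76). E3 and A2 were far below the other Ly6h cells, yet above every AII-like cell. Kcnab2, an auxiliary subunit, was higher in AII-like cells (2.57), though 2 of the 4 were under the detection level and the difference was 1.57 without A1 or B4. Of 24 sodium, calcium and cation channel genes, Cacna1h was called on the AII-like side and Cacna1b, the pore of a presynaptic calcium channel, on the Ly6h side (-4.13). The acid-sensing channel genes Asic1 (-6.09) and Asic2 (-4.63) were each detected in 4 of 5 Ly6h cells, with overlap of the sides.

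Adhesion genes followed the same pattern of few calls. Of 24 cadherin and protocadherin genes, 2 were called on the Ly6h side, Cdh22, which chose the cells, and Pcdh8. Over all genes 1.11% were called on that side and 0.595% on the other. Of 42 other adhesion genes, Ptprd, a receptor phosphatase that organises synapses, had 24199, 35140, 31394, 18998 and 20313 in Ly6h cells against 904, 9593, 23 and 5812 (-3.40, and -2.06 without B1 or A1). The neuronal surface protein genes Negr1 (-2.93, -1.19 without B1 or A1, and -4.68 without E2 or B4) and Cntnap4 (-3.85) were called on that side too. Ptprf, a relative of Ptprd, went the other way, with 14771, 12604, 11699 and 5708 in AII-like cells against 28, 1703, 4444, 1195 and 122 (3.34). Of 31 axon guidance genes the ephrin receptor gene Epha8 was called, on the AII-like side (3.39, and 1.58 without B1 or E2), with A1 and B4 under the detection level.

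Among 39 other amacrine transcription factors, Ebf1 (2672, 5061, 12301, 1601 and 1302 in Ly6h cells against 9, 27, 27 and 6, a difference of -3.74) and the eye-field factor Six3 (-4.35) were called on the Ly6h side, and Tfap2a and Tfap2b on the other. Of 12 bHLH genes the calls were Neurod2, which chose the cells, and Nhlh2. Over all genes 0.595% were called on the AII-like side and 1.11% on the Ly6h side. Neurod4 had 286, 11094, 9481 and 12785 in AII-like cells against 746, 218, 33, 117 and 39 (5.68), and the sides overlapped only through B1. Zeb2, a zinc finger repressor, was similar, with 8, 3583, 6222 and 3255 against 3, 26, 1, 2 and 1 (4.09). Several of these genes rest on 1 probe set: with the median over probe sets in each cell, the differences of Ebf1, Six3, Zeb2, Kcnd3, Ptprd, Neto2 and Chrnb2 were 0 and that of Tfap2a was 0.64.

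Presynaptic genes were detected in similar numbers on both sides apart from B1. Of 47 measured, AII-like cells had 9, 23, 24 and 25 detected and Ly6h cells 26, 27, 20, 25 and 28. Of 39 that entered, 2 were called, the synaptotagmin genes Syt3 (-3.65) and Syt5 (-3.08), both higher in Ly6h cells. On that side 1.11% of all genes were called. The reelin pathway, in which Dab1 acts, had 0 of 16 genes called, and Reln itself was detected in none of the 9 cells. The neuronal tubulin gene Tubb3 had 5654, 7922, 5814, 6445 and 5170 in Ly6h cells against 445, 29, 33 and 931 (-4.29). It was the 1 called gene of 25 in the immature neuron list, whose median difference was -0.42. Oxidative phosphorylation genes had a median difference of -0.09, and housekeeping genes -0.09 as well. Both medians turned positive with scaling to the 75th percentile, to 0.27 and 0.34. Of 44 oxidative phosphorylation genes that entered, 1 was called, on the Ly6h side.

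Fewer cholesterol synthesis genes were detected in AII-like than in Ly6h cells. Of 18 measured, 6, 2, 3 and 6 were detected in the AII-like cells and 7, 7, 10, 14 and 9 in the Ly6h cells, which sets the sides apart by 1 gene. The summed signal of the list did not set the sides apart. It was 56335, 7957, 13500 and 25118 in AII-like cells and 48855, 41711, 65762, 85241 and 41832 in Ly6h cells, with overlap through B1. Over all genes, 2249 to 3467 were detected in AII-like cells and 3291 to 4180 in Ly6h cells, with overlap of the sides. Among Ly6h cells E4, at 3291, was below E2, A1 and B4. The part of the number of genes detected in the list's count was not tested. The other 17 cells had 2 to 7. Of 15 that entered, 0 were called, 10 were lower in AII-like cells, 0 higher and 5 equal, with a median difference of -2.12 against 0 for all genes. Hmgcs1, an early enzyme of the pathway, had 1424, 4163, 29 and 4732 in AII-like cells and 16074, 14451, 13317, 11227 and 4301 in Ly6h cells (-2.45), with overlap through B3 and B4. The list median was -1.80 in the P5 pSynapsin group, -4.04 in the P8 pNdrg4 pair and 0 in the P8 pSynapsin pair, and it was -0.75 without E2.

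Genes of rod photoreceptors and Muller glia were on balance higher in AII-like cells, with overlap of the sides. The cone, bipolar and ganglion cell lists had a median difference of 0. Only 3, 4 and 6 of their genes entered, of which 2, 3 and 3 had a difference of 0. Tubb3, in the ganglion cell list, was called on the Ly6h side. Of 6 horizontal cell genes, 4 were higher in AII-like cells and 1 lower (median 0.36), and Tfap2b was called. Of 26 rod photoreceptor genes measured, AII-like cells had 8, 14, 10 and 16 detected and Ly6h cells 11, 7, 5, 14 and 6. The summed signal of the list ran from 76338 to 190951 on the AII-like side and from 31765 to 79479 on the Ly6h side. Of 18 that entered, Rbp3, a retinoid-binding protein of photoreceptors, was called (3.04), where 0.595% of all genes were called on the AII-like side. In this list 13 were higher and 2 lower in AII-like cells, with a median difference of 1.51. That median was 0.46 without E2 and 0.46 without B4. Of the 26 genes, 18 were detected in at least 1 of the 9 cells, among them Sag (4 AII-like and 4 Ly6h cells), Crx (4 and 3), Nrl (3 and 3) and Pde6g (3 and 1). The other 8, Gngt1, Pde6a, Cnga1, Prph2, Guca1a, Guca1b, Slc24a1 and Rdh12, were detected in none of them.

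Of 19 Muller glia genes, AII-like cells had 8, 8, 5 and 7 detected and Ly6h cells 3, 4, 2, 8 and 2. The summed signal ran from 26064 to 136853 and from 10182 to 47051. Of 11 that entered, Car14, a carbonic anhydrase, was called (2.02, not called without B1 or B4), against 0.595% of all genes on that side. Of the 11, 10 were higher in AII-like cells and 0 lower (median 1.50). Vim, an intermediate filament, was highest in B1 at 35745. Glul was detected in 3 AII-like and 3 Ly6h cells, Gpr37 in 3 and 0, and Rlbp1 in 2 and 0. Of the 19 genes, 7 were detected in none of the 9 cells, among them Slc1a3, Aqp4, Apoe and Kcnj10.

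Inside the P8 pNdrg4 pair, 1 cell against 1, the rod median was -0.10 and the Muller glia median -0.20. In the P5 pSynapsin group the rod and Muller medians were 1.80 and 1.96, and in the P8 pSynapsin pair 4.20 and 2.43. The part of rod and glial RNA in the results was not tested. Of the 15 genes of astrocytes, vessels and microglia, 14 were detected in none of the 9 cells. Among markers of other amacrine classes, Chat and Slc18a3 of starburst cells, Th and Slc6a3 of dopaminergic cells, and the neuropeptide genes Vip, Sst and Npy were detected in none of the 9.

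**Figure D4:**
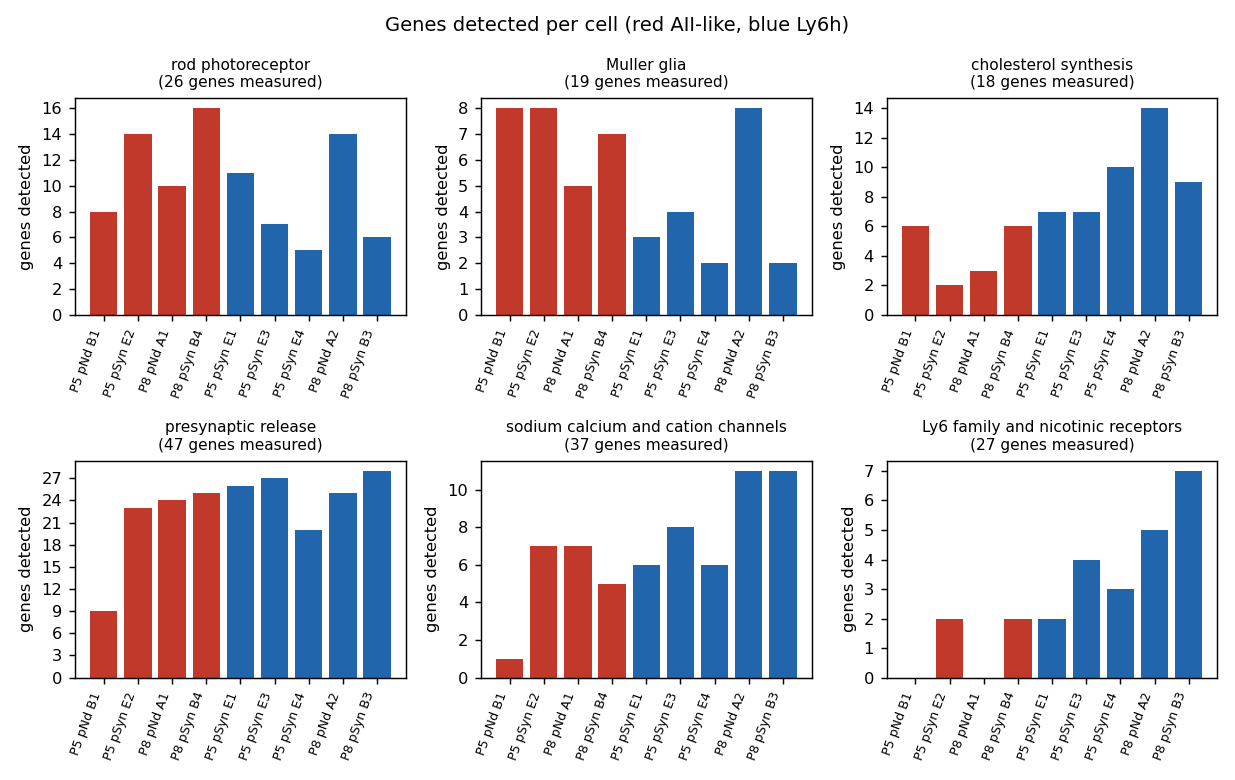
Number of genes detected (signal of at least 1000) in each AII-like cell (red) and each Ly6h cell (blue) for 6 gene lists, with each vertical axis starting at 0. Cholesterol synthesis counts are 2 to 6 in AII-like and 7 to 14 in Ly6h cells. B1 has 9 presynaptic genes against at least 20 in the other cells. The last panel includes Ly6h, which chose the cells.

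Across 8562 genes without those that chose the cells, the closest of the other 8 cells by Spearman correlation lay on the same side for 9 of 9 cells, and for no cell in the same label group. Only E1, E3 and E4 share both side and label group, so the other cells had no such neighbour on their own side. Some margins were small: B1 was closest to B4 at 0.299 against 0.292 for E1, and B4 to E2 at 0.415 against 0.407 for A2. Correlations ran from 0.288 to 0.415 among the 6 pairs of AII-like cells (median 0.342), from 0.411 to 0.466 among the 10 pairs of Ly6h cells (median 0.428), and from 0.272 to 0.407 among the 20 pairs between sides (median 0.362). The Ly6h pairs were thus all closer than any pair between sides, whereas the AII-like pairs overlapped with the pairs between sides. These correlations are across genes, which are not independent, and the points share amplification and depth.

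The named genes were also counted in the other 17 cells, as a description only. Their choice required all 15 to be detected in every cell of their own side, which favours lower counts elsewhere. The other 17 cells had 1909 to 3925 genes detected (median 2583), against medians of 3422 in AII-like and 3543 in Ly6h cells. The part of depth, reporter and culture in their counts was not tested. Of the 15 named AII-like genes, 2 to 9 were detected (median 6), and of the 15 named Ly6h genes 0 to 9 (median 3). The cell with 9 named Ly6h genes was cultured P5 pNdrg4 cell D3, which also had Tmem215 (19277), Cdh22 (3672) and Dab1 (10871) but Ly6h at 14 and Gabrb2 at 7. The cell with 2 of the AII-like choosing genes, P5 pNdrg4 A6 with no culture stated, held 5 of the 15 named AII-like genes. Ly6h cells held 2, 1, 1, 5 and 4 of the named AII-like genes, most in A2 and B3, and AII-like cells held 0 of the named Ly6h genes, counts that the choice of these genes favours.

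**Figure D5:**
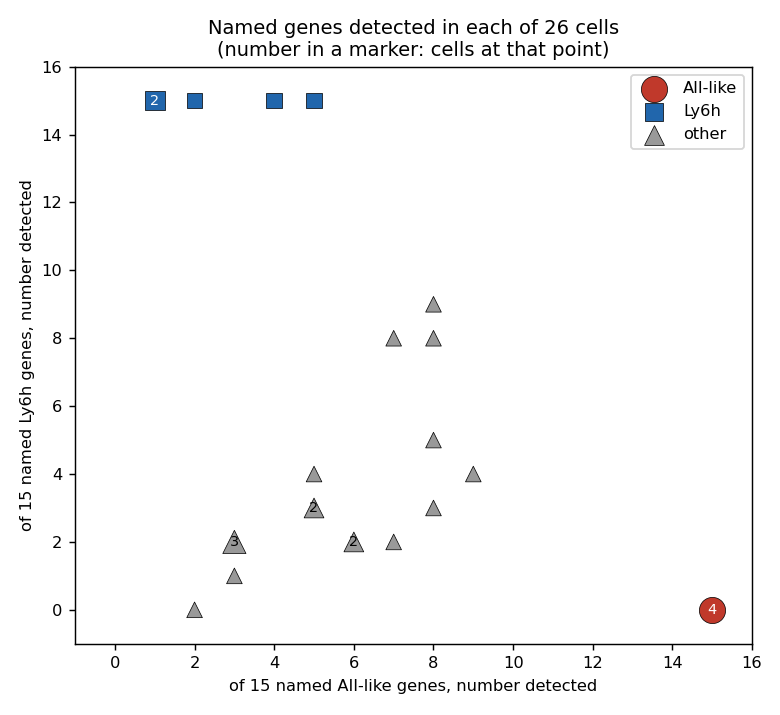
Number of the 15 named AII-like genes (horizontal) and of the 15 named Ly6h genes (vertical) detected in each of the 26 cells. The 4 AII-like cells lie at 15 and 0, and the Ly6h cells at 1 to 5 and 15. The choice of the genes fixes the value of 15 for the cells of their own side. The other 17 cells have at most 9 of either set.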

How the data were processed

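The deposited values are linear signal intensities per probe set, which the authors made with MAS5, per the submitters' processing notes. No version of it was found in the labels. Each array has a mean of 500 after 2% of values are trimmed from both ends, and signals were not scaled again. The table gives no detection calls. Of 45101 probe sets, 34958 had 1 named gene and 932 several, and 9211 had none; control probe sets (64) were left out. Through gene identifiers 34754 matched a current symbol, giving 18193 genes.

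Cells were put on sides by signals, as described above, with pandas 2.3.3, numpy 2.4.6 and scipy 1.17.1 under Python 3.11.15, and plots were drawn with matplotlib 3.10.9. The cells, the 39 gene lists (845 of 912 genes measured) and the rules were chosen with earlier results of these data known. Genes were named by rule. These were the genes that chose the cells and, of most lists, called members, the widest members and undetected class markers. In each direction, 15 more had the widest gap between the lowest cell of the higher side and the highest of the lower side. Those 15 were taken among genes detected in every cell of the higher side. Shared genes and genes called only inside label groups were picked with their values known. A run on simulated signals recovered the planted shifts. These were wide and left no overlap of the sides, so the run checks only the code and not the narrower calls. The number of arrays limits the precision. Alternatives were detection at 500 or 2000, floors of 50 or 500, the median over probe sets, quantile normalization, scaling to the 75th percentile, other entry filters, means, leaving out each of the 9 cells, and averaging over label groups.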

Additional observations from a re-analysis of the deposited data

Results flagged for a closer look

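P5 pNdrg4 cell B1, the AII-like cell with no culture stated, stood far below the other 3 AII-like cells in 3 of 52 sets of values examined in this way. It had 2249 genes detected, against 3382 to 3467 in the others. It had 9 presynaptic genes detected, against 23 to 25, and 32 oxidative phosphorylation genes, against 41 to 42. For independent, normally distributed values, chance alone sets a value apart in this way in about 1 of 20 sets. That rate does not hold strictly here, since the presynaptic and oxidative phosphorylation genes are part of all genes detected. The named genes among the sets were also chosen for a gap between the sides.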

How the results depend on the processing

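Differences of 72 genes were recomputed under every alternative, and none of the 60 called genes among them changed direction. A called gene has no overlap of the sides, so most alternatives could not reverse it. Some genes fell to 0 with the median over probe sets, and Nfib, which was not called, fell to 0 without E2 or B4 as well. Counts of genes moved by more than 1.5 times in a few alternatives. Without B1, the cell with no stated culture, 155 genes were called higher in AII-like cells in place of 51, and scaling to the 75th percentile gave 78. The AII-like count was 83, 86 and 85 without E2, A1 and B4, and the Ly6h count 161, 156, 143, 168 and 163 without E1, E2, E4, A1 and B4. Leaving out 1 cell at a time, a setting in which fewer cells have to be set apart, gave 58 to 155 genes on the AII-like side and 126 to 168 on the Ly6h side (95 with all cells). The counts inside all 3 label groups then ran from 220 to 241 for AII-like cells and from 299 to 365 for Ly6h cells; leaving out A1, A2, B4 or B3 empties a label group and gives no such count. The label-group count of AII-like cells, 222, was 143 with the median over probe sets and 383 with the 75th percentile, and that of Ly6h cells, 299, was 193 with a floor of 500. The cause of these shifts was not tested. AII-like calls made up 34.9% of all calls, 43.4% after quantile normalization, 49.7% with the 75th percentile and 55.2% without B1. With the median over probe sets, 11 of the 14 called AII-like and 13 of 15 named Ly6h genes stayed called, with Gas1, Crtac1, Trpm7, Gas7 and Pde1c lost. Of 24 other called genes named in the text, 16 stayed called with that median, 16 with a floor of 500 and 20 to 23 without 1 cell. No paired analysis was possible because the cell numbers in the labels only name cells and no result comes from a test. Signals near the floor have no order, and a gene under 1000 may have been lost in amplification.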

Other observations

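Further genes called higher in Ly6h cells, which are on none of the lists, were picked with their values known. Slc24a3, a sodium, calcium and potassium exchanger, had signals of 45999, 52148, 35144, 24614 and 29136 in cells E1, E3, E4, A2 and B3 and of 37, 101, 584 and 3589 in B1, E2, A1 and B4 (-6.68 on the log2 scale). Slc30a3, a vesicular zinc transporter, differed by -5.74, and Scrt2, a neuronal transcriptional repressor, by -5.38. Ret, the receptor of the GDNF family ligands, was detected in all 5 Ly6h cells and at 1808 and 1971 in A1 and B4 (-3.71, and -2.12 without B1 or E2).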
